A study of Mus musculus with 3 samples.

Results

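A set of 10 genes of Wnt signalling and limb dorsoventral patterning were examined for chromatin occupancy by LMX1B, a LIM homeodomain transcription factor required for dorsal limb identity. They were the ligands Wnt7a and Wnt5a, the receptor genes Fzd7, Lrp5 and Lrp6, the R-spondin genes Rspo2 and Rspo3, the inhibitor genes Dkk1 and Axin2, and the homeobox gene En1. These 10 of 21779 protein-coding genes were chosen by name for their function, but with earlier results of these data known. The intervals were assigned to them by position. Each gene was given a domain, which is its RefSeq gene body on mm10 lengthened in each direction, by no more than 1 Mb, until a neighbouring protein-coding gene body is met. The 10 domains held the midpoints of 5 of 1287 intervals (peaks) of one ChIP-seq sample and of 22 of 4501 of another. A gene whose regulatory element lies beyond the next gene body is missed by such a domain.

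Chromatin came from fore- and hindlimb buds pooled from embryonic day 12.5 mice of strain C57BL/6, in 2 runs of 48 limb buds each, and LMX1B was precipitated with the polyclonal antibody BMO8 in both samples. Below, the sample titled Lmx1b ChIP-seq is named the first ChIP, and the one titled as a BMO8 validation the validation ChIP; the tracks of the former are named as wild-type, those of the latter carry no genotype, and the title of the series speaks of wild-type limb buds. Input DNA came from wild-type and mutant chromatin together and had no interval list. Each ChIP was 1 library, so no value below has a replicate error and no test between samples was possible. The whole bud was used, so mesenchyme and ectoderm cannot be told apart in these lists, and interval lists carry no expression values against which the labelled tissue could be checked. Every interval has a summit with a whole-number score that the authors deposited without a unit. Scores were therefore read only within their own list, where the median was 20 in the first ChIP (range 12 to 86) and 11 in the validation ChIP (6 to 55). Read depth is unknown, and a site without an interval is one that the authors did not list, which is not the same as a site without LMX1B.

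In the limb bud, Wnt7a is secreted by the dorsal ectoderm and induces Lmx1b in the dorsal mesenchyme beneath it, while En1 in the ventral ectoderm keeps Wnt7a dorsal. Wnt5a is made in the distal mesenchyme and drives outgrowth. Wnt ligands bind Frizzled receptors such as Fzd7, and in the β-catenin pathway also the co-receptors Lrp5 and Lrp6. R-spondins raise the amount of receptor at the cell surface, Dkk1 blocks Lrp5 and Lrp6, and Axin2 is a scaffold of the β-catenin destruction complex and a widely used target gene of the pathway.

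Promoter sequences are shown first, as a description of the genes and not of the intervals. RefSeq promoter windows on GRCm38.p6, from 250 bases before to 50 after the start of transcription, were held for 5 of the 10 genes (Wnt7a, En1, Fzd7, Dkk1 and Axin2). No interval of either ChIP overlapped any of the 5. First-ChIP intervals overlapped 1.05% and validation intervals 1.7% of the 21263 promoter windows of protein-coding genes. At shares this low, an absence from 5 windows says little about these genes. Windows of Wnt5a, Lrp6, Lrp5, Rspo2 and Rspo3 were not used here. The windows printed below are that of Fzd7, whose body holds an interval of the first ChIP, that of Wnt7a, whose domain holds none, and that of En1, whose domain holds the interval with the highest scores. They are written 5′ to 3′ on the gene's own strand; capitals mark the GC box (GGGCGG or its reverse complement) in Fzd7 and Wnt7a and the E-box (CANNTG) in En1.
Fzd7, chr1:59481897-59482196, plus strand: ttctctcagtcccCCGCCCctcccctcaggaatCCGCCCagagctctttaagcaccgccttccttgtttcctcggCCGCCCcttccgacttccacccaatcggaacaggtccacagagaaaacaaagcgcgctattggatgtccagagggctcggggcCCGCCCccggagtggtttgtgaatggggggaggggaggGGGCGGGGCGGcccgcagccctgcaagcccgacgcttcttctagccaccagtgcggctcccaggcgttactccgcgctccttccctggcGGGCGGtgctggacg
Wnt7a, chr6:91411304-91411603, minus strand: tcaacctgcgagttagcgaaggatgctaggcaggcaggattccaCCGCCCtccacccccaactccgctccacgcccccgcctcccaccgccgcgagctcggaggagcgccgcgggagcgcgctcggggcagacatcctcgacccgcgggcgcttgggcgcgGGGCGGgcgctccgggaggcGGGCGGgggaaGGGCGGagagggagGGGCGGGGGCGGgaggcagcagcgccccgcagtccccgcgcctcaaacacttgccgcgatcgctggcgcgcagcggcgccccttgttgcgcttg
En1, chr1:120602237-120602536, plus strand: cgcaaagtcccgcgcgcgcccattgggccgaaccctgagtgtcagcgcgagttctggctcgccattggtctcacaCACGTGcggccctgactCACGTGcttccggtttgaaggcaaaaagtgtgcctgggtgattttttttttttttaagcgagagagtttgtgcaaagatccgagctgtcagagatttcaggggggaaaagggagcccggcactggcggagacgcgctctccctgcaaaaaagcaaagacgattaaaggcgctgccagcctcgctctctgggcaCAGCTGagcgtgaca

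The windows of Fzd7 and Wnt7a were rich in GC boxes, with 7 and 6 matches, some of them overlapping, and a GC content of 66.7% and 76.0% against a median of 56.3% over all windows. The window of En1 had no GC box but 3 E-boxes, and its GC content was 57.0%. Both strands were searched. The homeodomain core TAATTA, the longer TTAATTA that contains it, and the TCF/LEF sequence CTTTGAT were in none of the 5 windows, and they were in 4.53%, 2.61% and 3.22% of all windows. Where so few windows have a match, an absence from 5 says little. A GC box was in 3 of the 5 (46.2% of all windows) and an E-box in 2 (69.0%). These matches describe the windows only, and the bases beneath the intervals themselves were not used here.

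An interval found in both lists, overlapping by at least 1 bp, is called shared. Of the 10 genes, 3 had a shared interval in their domain: En1, Lrp6 and Rspo3. A first-ChIP interval of any kind lay in 5 domains, those of Wnt5a and Fzd7 in addition, and a validation interval in 9, all except that of Wnt7a. Over all protein-coding genes, 3.41% of domains had a shared interval, 6.04% a first-ChIP interval and 15.1% a validation interval. The 10 domains were long, with a median of 345 kb (132 to 833 kb) against 67.3 kb over all genes, and a long domain has more room for an interval. Among the 5539 genes with a domain within the length range of the 10, 6.41% had a shared interval, 10.2% a first-ChIP interval and 29.2% a validation interval. Lengths were not matched within that range, so domain length is taken into account only in part. The median number of validation intervals was 2 per domain for the 10 genes and 0 over all genes. For first-ChIP intervals these medians were 0.5 and 0, and for shared ones both were 0.

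**Figure D1:**
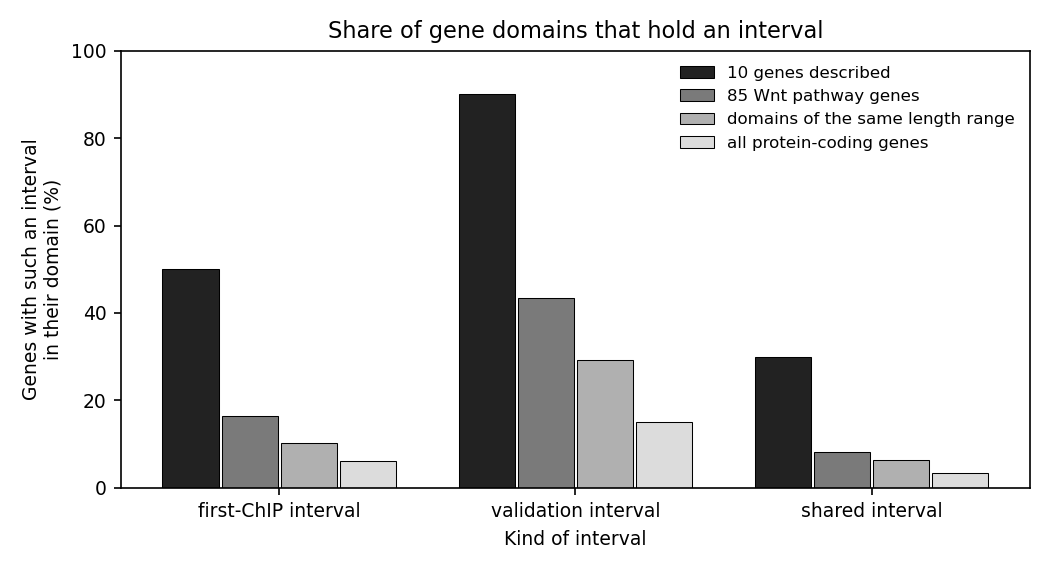
Percentage of genes (vertical axis) with a first-ChIP, validation or shared interval in their domain (horizontal axis), for the 10 genes described, the 85 genes of a Wnt pathway list, the 5539 genes with domains of the same length range and all 21779 protein-coding genes. The bars are 50%, 90% and 30% for the 10 genes, and each exceeds the bar for domains of the same length range. Lengths were not matched within that range. With 10 genes, 1 gene more or less moves a bar by 10 points. The 10 genes were chosen with earlier results of these data known, so the comparison is descriptive only.

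Counted per length, the 3.98 Mb of the 10 domains held 1.26 first-ChIP, 5.53 validation and 0.754 shared intervals per Mb. Over the union of all protein-coding domains (2631 Mb) the figures were 0.485, 1.70 and 0.266. The share of intervals found in both lists was close to that of the lists as a whole. It was 3 of 5 (60%) against 54.9% in the first ChIP, and 3 of 22 (13.6%) against 15.6% in the validation ChIP.

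**Figure D2:**
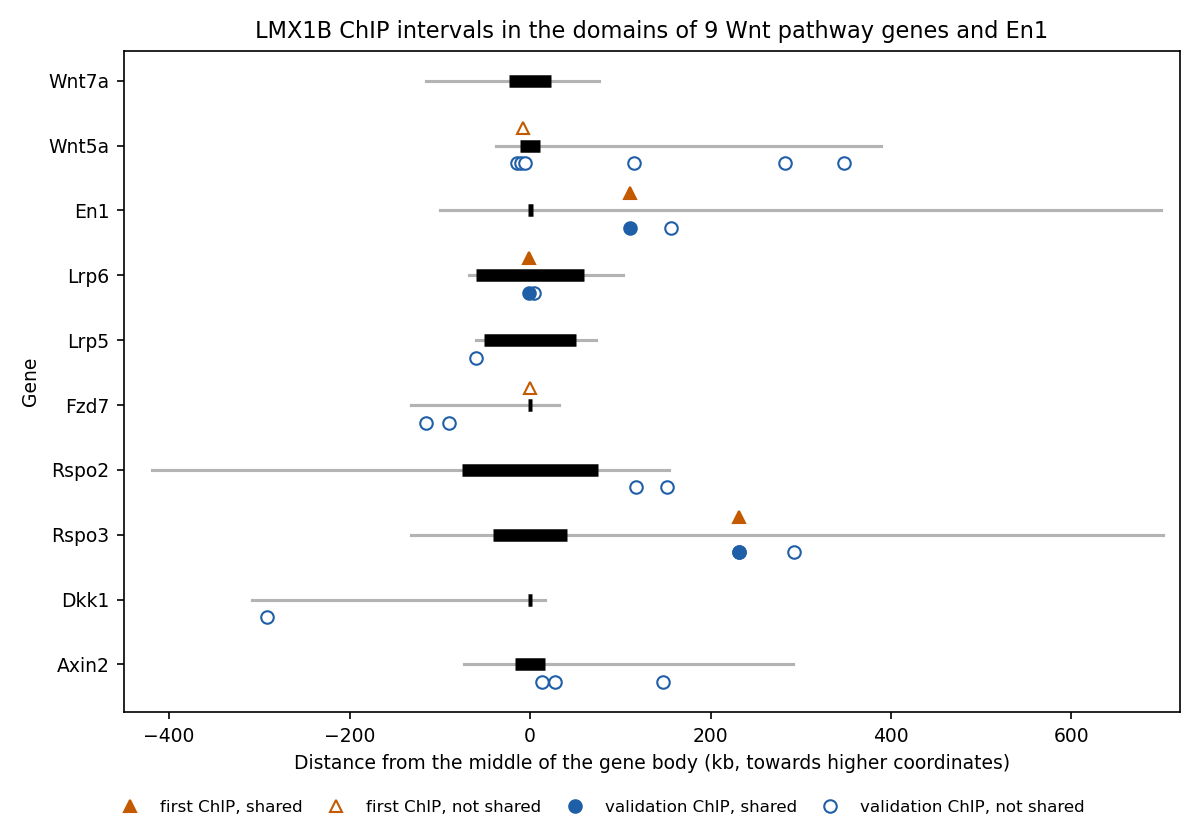
Position of every interval in the 10 domains, in kb from the middle of each gene body (horizontal axis, towards higher coordinates; genes in rows). Grey lines are domains, black bars gene bodies, triangles first-ChIP midpoints and circles validation midpoints, filled where shared. Filled symbols occur at En1, Lrp6 and Rspo3 only; at Rspo3 a filled circle covers an open one beside it, and the row of Wnt7a is empty.

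En1 encodes the homeodomain repressor of the ventral ectoderm, and it had the highest-scoring shared interval of the 10 genes. The gene lies on chromosome 1 at 120602487 to 120607991 on the plus strand. The first ChIP listed an interval at 120715360 to 120716047 with a score of 35, and the validation ChIP one at 120715221 to 120716050 with a score of 24. Only 4.97% of the first list and 3.78% of the validation list scored as high or higher. The first-ChIP interval lay whole within the validation interval, and the summits were 64 bp apart. Its midpoint was 113 kb downstream of the start of En1 and 108 kb beyond the far end of the gene, in the body of the long noncoding RNA gene 2610027F03Rik (120614654 to 120763567). A second validation interval in the same noncoding gene, at 120761350 to 120761866, had a score of 9, a level that 92.2% of its list reached. En1 was the protein-coding gene nearest to all 3 intervals, and none lay in its own 5.51 kb body. The domain ran for 799 kb from Marco to Insig2, and nothing else in it was listed.

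Lrp6 encodes a co-receptor that Wnt ligands bring together with Frizzled. It lies on chromosome 6 at 134446476 to 134566913 and was the only one of the 10 genes with a shared interval in its body. Of all protein-coding genes, 1.04% had one there. The body of Lrp6 is 120 kb long, and the share among bodies of like length was not counted. The first-ChIP interval at 134504852 to 134505345 had a score of 22, which 37.5% of the list reached, and the validation interval at 134504975 to 134505542 a score of 16, which 16.7% reached. They overlapped by 371 bp, with summits 48 bp apart, 58.6 kb inside the nearer end of the gene. A further validation interval at 134511068 to 134511638, 5.53 kb on from the shared one, had a score of 9. Whether these lie in exons or introns was not resolved, since the gene table has no exons.

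Lrp5, the related co-receptor gene on chromosome 19 (3584825 to 3686585), had no first-ChIP interval in its domain and none in its body in either list. Its 1 validation interval, at 3575909 to 3576739 with a score of 16, lay 8.50 kb below the gene and 290 bp inside the edge of the domain. It reached into the higher-coordinate end of the neighbouring gene Ppp6r3 (3454928 to 3576033), which was nearer than Lrp5. Its midpoint fell in the transfer RNA gene n-TAagc9 (3576263 to 3576335). Only 27 of 4501 validation intervals (0.6%) overlapped a transfer RNA gene. The interval therefore counts for Lrp5 by the rule for domains, although other genes lie closer to it.

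Fzd7 encodes a Frizzled receptor from an intronless gene on chromosome 1 (59482147 to 59486955, plus strand). The first ChIP listed an interval inside it, at 59483606 to 59484349, 1.83 kb from the start of transcription and beyond the promoter window printed above. Its score of 17 was reached by 86.4% of the list, so it stood among the lower intervals. The validation ChIP listed nothing there, and its nearest interval began 31.7 kb away. The 2 validation intervals of the domain, at 59368467 to 59369160 and 59394476 to 59394901, had scores of 12 and 13 and lay 113 kb and 87.5 kb upstream of the start. The latter lay in the noncoding RNA gene Gm33724, and both were nearer to Cdk15 than to Fzd7. A validation interval at 59516059 to 59516689 with a score of 12 fell outside the domain by 111 bp, because its midpoint was already in Gm973.

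Rspo3, an R-spondin gene that acts with Rspo2 in limb outgrowth, on chromosome 10 (29453106 to 29535867), also had a shared interval. Here the lists ranked the site differently. The first-ChIP interval at 29725424 to 29725705 had a score of 15, which 97.9% of its list reached, whereas the validation interval at 29725260 to 29725779 had a score of 18, which 11.0% reached. The summits lay 11 bp apart, the closest of the 3 shared pairs. The site was 190 kb above the gene, outside any annotated gene, and Rspo3 was the nearest protein-coding gene. A second validation interval (29725961 to 29726679, score 11) began 0.255 kb beyond the first-ChIP interval, and another lay 59.5 kb further on (29786182 to 29786914, score 16). All 4 intervals of the 833 kb domain thus fell between 190 kb and 251 kb from the gene, on the side of Cenpw.

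Rspo2, which encodes an R-spondin of the apical ectodermal ridge, lies on chromosome 15 (43020788 to 43171594). No first-ChIP interval lay in its 573 kb domain, and the nearest was 4311 kb away. Validation intervals at 43213297 to 43213949 and 43247955 to 43248466 each had a score of 10, which 76.0% of the list reached. They were 42.0 kb and 76.6 kb above the gene, and both were nearer to Eif3e. The shared interval near Rspo3 had no counterpart in the domain of Rspo2.

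Wnt5a, the ligand gene of the distal mesenchyme on chromosome 14 (28504543 to 28527448), had the most validation intervals of the 10 genes, 6, and no shared one. At least as many lay in the domains of 186 protein-coding genes (0.854%). The domain of Wnt5a was 426 kb long, against a median of 67.3 kb over all genes, and the share among domains of like length was not counted. A first-ChIP interval at 28507714 to 28508058, 3.34 kb inside the lower end of the gene, had a score of 16, which 93.9% of its list reached. It lay between validation intervals at 28504917 to 28505941 (score 10) and 28510022 to 28510560 (score 8), with gaps of 1.77 kb and 1.96 kb. Another validation interval at 28501073 to 28501640 (score 10) lay 3.19 kb below the gene. Both ChIPs thus listed intervals at this end of Wnt5a, but none overlapped between the lists.

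The other 3 validation intervals of the domain lay at 103 kb, 271 kb and 336 kb above Wnt5a, with scores of 8, 13 and 20. The last, at 28863359 to 28864019, was the highest unshared one in the 10 domains, and 7.53% of the list reached its score. It and the one before it were nearer to Cacna2d3, a calcium channel subunit gene.

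Beyond the domain, the genes on both sides of Wnt5a also held intervals. Within 500 kb of Wnt5a there were 17 validation and 3 first-ChIP intervals, and 113 protein-coding genes (0.519%) reached that number of validation intervals in such a window. Of the 10 genes, 6 had a first-ChIP, 10 a validation and 4 a shared interval within 500 kb of the body, as had 38.5%, 65.9% and 18.8% of all protein-coding genes. Around Wnt5a, 10 of the validation intervals lay in the body of Erc2, a presynaptic protein gene. One of them, at 28467947 to 28468410 with a score of 16, was shared with a first-ChIP interval at 28467853 to 28468222 with a score of 21, 36.5 kb from Wnt5a. A second shared interval, with scores of 19 in the first ChIP and 22 in the validation ChIP, lay in Cacna2d3, 445 kb from Wnt5a. Neither counts for Wnt5a by the rule for domains. With a plain window of 100 kb around each gene, Wnt5a and Lrp6 were the genes with a shared interval, and En1 and Rspo3 were not.

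**Figure D3:**
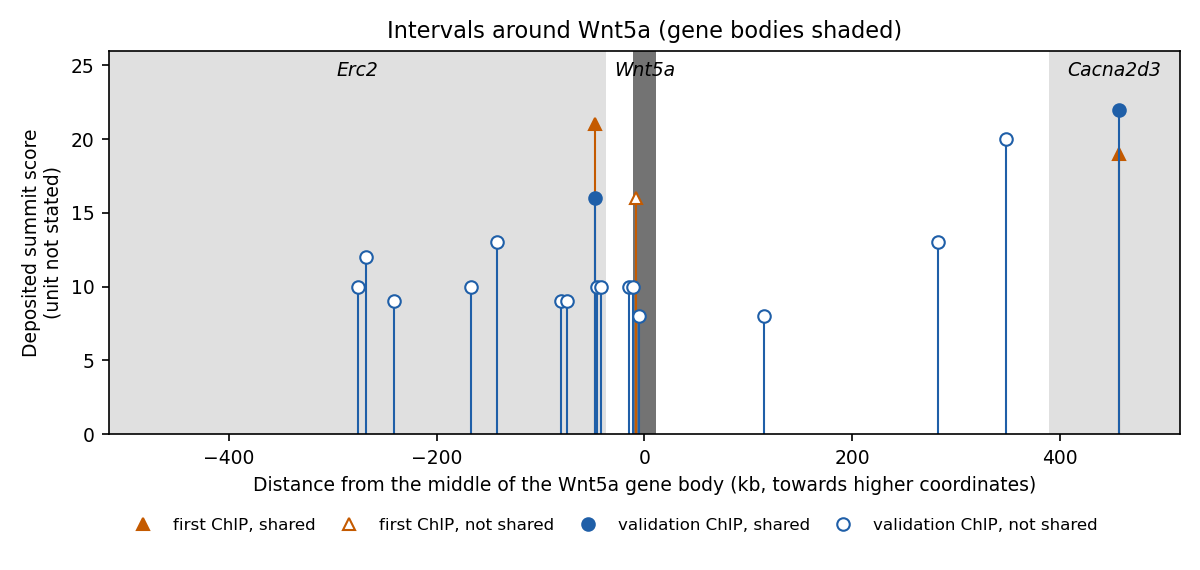
Intervals within 500 kb of Wnt5a: deposited summit score (vertical axis, no stated unit) against the distance of the interval midpoint from the middle of the gene body in kb. Triangles are first-ChIP and circles validation intervals, filled where shared; scores of the lists are not on one scale. The 3 intervals nearest the lower end of Wnt5a in the validation ChIP have scores of 8 to 10, and the filled symbols stand in Erc2 and Cacna2d3.

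Wnt7a, the dorsal ectodermal ligand that induces Lmx1b, was the only one of the 10 genes with an empty domain. The gene lies on chromosome 6 (91363981 to 91411353, minus strand), and its domain of 192 kb ran from Fbln2 to Chchd4. The nearest validation interval, at 91156757 to 91157368 with a score of 10, was 207 kb from the gene, in Hdac11. The nearest first-ChIP interval was 2001 kb away.

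Dkk1, the secreted antagonist of Lrp5 and Lrp6, lies on chromosome 19 (30545876 to 30549496, minus strand). It had 1 validation interval in its domain, at 30256239 to 30256775 with a score of 11, the median of the list. This lay 293 kb downstream of the start of Dkk1 and nearer to Mbl2. The first ChIP listed no interval within 2194 kb of the gene.

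Axin2 (chromosome 11, 108917828 to 108950783, plus strand) had 3 validation intervals and no first-ChIP interval. One, at 108947139 to 108947931 with a score of 10, lay in the gene, 3.25 kb before its far end. The others, at 108961685 to 108962125 and 109081320 to 109081755, had scores of 8 and 9 and lay 11.1 kb and 131 kb downstream of the gene. All 3 were below the median of their list, and the nearest first-ChIP interval was 1699 kb away. A further 5 validation intervals lay within 500 kb of Axin2, outside its domain.

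**Figure D4:**
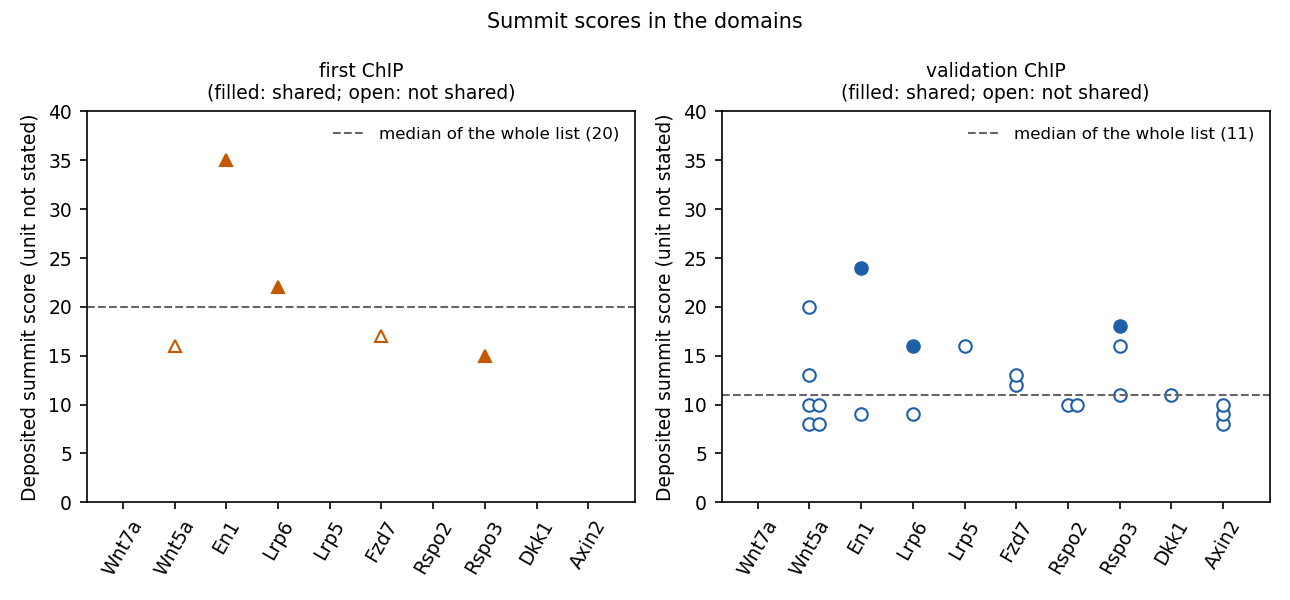
Deposited summit score (vertical axis, no stated unit) of each interval in the domain of each gene (horizontal axis), for the first ChIP on the left and the validation ChIP on the right; filled symbols are shared intervals and the dashed line is the median of the whole list, 20 and 11. En1 stands highest in both panels, with 35 and 24, while the first-ChIP intervals of Rspo3, Wnt5a and Fzd7 lie below the median.

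Compared with each other, the 5 first-ChIP intervals had a median score of 17, and 3 of them were below the median of the list. The 22 validation intervals had a median of 10.5, against 11 for the whole list, and 11 were below it. The 19 unshared validation intervals ranged from 8 to 20 with a median of 10. Over 50 kb from the gene body lay 2 of 5 intervals in the first ChIP and 13 of 22 in the validation ChIP. Within gene bodies there were 3 first-ChIP intervals (Wnt5a, Fzd7 and Lrp6) and 5 validation intervals (2 each in Wnt5a and Lrp6, and 1 in Axin2). Of all protein-coding genes, 2.42% had a first-ChIP and 5.46% a validation interval in the body. These shares cover bodies of every length, while those of the 10 genes ran from 3.62 kb (Dkk1) to 151 kb (Rspo2). Midpoints within 1 kb of a gene end numbered 0 in the first ChIP and 1 in the validation ChIP, at Wnt5a. That count and the one beyond 50 kb were not made for the whole lists, so neither can be called particular to these genes. A further deposited track of the authors, named Active Regions, repeated the first-ChIP intervals at En1, Lrp6 and Rspo3 and left out those at Wnt5a and Fzd7. It repeated 735 of all 1287 first-ChIP intervals, and 707 of the 1287 were shared. Within 500 kb of the 10 genes it held every shared first-ChIP interval and no unshared one, so it is not separate support for the shared sites.

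The 9 Wnt genes among the 10 belong to a list of 85 genes of Wnt signalling. In that list 7 genes (8.24%) had a shared interval in their domain, 14 (16.5%) a first-ChIP interval and 37 (43.5%) a validation interval; the median domain was 124 kb. Over all protein-coding genes, with a median domain of 67.3 kb, these shares were 3.41%, 6.04% and 15.1%. Without the 9, the counts were 5 (6.58%), 10 (13.2%) and 29 (38.2%) of 76. Besides Lrp6 and Rspo3, shared intervals lay in the domains of the ligand genes Wnt3a and Wnt11, the receptor gene Fzd8, and Lef1 and Tcf7l2, which encode nuclear effectors of β-catenin. Tcf7l2 had 4 of them, the nearest of which lay in the gene. Its domain was 660 kb long, and the share of all genes with 4 or more shared intervals was not counted. The shared interval of Wnt3a was 8.82 kb from the gene, with scores of 18 in the first ChIP and 14 in the validation ChIP. Those of Wnt11, Lef1 and Fzd8 were 114 kb, 243 kb and 885 kb away.

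By role, and against 15.1% of all protein-coding genes, validation intervals lay in the domains of 7 of 9 genes of the R-spondin axis (77.8%), 8 of 13 genes of secreted inhibitors (61.5%), 11 of 18 receptors and co-receptors (61.1%) and 3 of 5 genes of ligand processing (60%). They lay in those of 3 of 8 nuclear effectors (37.5%) and 4 of 19 ligands (21.1%). Of 13 genes of cytoplasmic transduction, 1 had any in its domain (7.69%), Axin2. The ligands stood near the share of all genes, and the lower cytoplasmic share rests on too few genes to be set apart from it. The higher shares also rest on few genes, 5 to 18 per role, and no test was made. Some of these genes were chosen with earlier results known: Rspo2 and Rspo3, Dkk1, and the receptor genes Fzd7, Lrp5 and Lrp6. The median domain, in the same order of roles, was 167, 124, 148, 299, 169, 78.6 and 95.7 kb. The part of domain length in these counts was not tested. Shared intervals, which 3.41% of all genes had, lay in the domains of 2 ligands, 2 receptors, 2 nuclear effectors, 1 R-spondin gene, and none of the secreted inhibitors, of the cytoplasmic genes or of the ligand processing genes. At a share this low, an absence from roles of 5 or 13 genes says little.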

How the data were processed

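The submitters' processing notes name BWA and the build mm10; what made the interval calls, with which threshold and versions, is not given in the sources used here. The authors deposited 1 interval list per ChIP, with a summit score per interval whose unit and normalization are not stated. Scores were used within a list only. The list of the validation ChIP came with a copy of the first-ChIP list, which differed from the separately deposited one in 1 summit and was identical at all 5 intervals described here. Tracks were tied to samples by their names.

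Genes came from a RefSeq table of GRCm38.p6, which has the chromosome coordinates of mm10; 340 entries starting before 3 Mb on autosomes and X were left out, and 21779 protein-coding genes remained. The table has no strand or exons; strand and start sites came from the promoter windows where held. An interval belonged to a domain when its midpoint lay in it, and neighbouring genes share the space between them. Coordinates count from 1. Counts are set beside the same count over all protein-coding genes, with no test, since each ChIP is 1 library. The functions were tested on simulated data. Alternatives were other overlap rules, a score minimum, other gene windows, and summits in place of midpoints. The genes and lists were chosen with earlier results of these data known. All 10 genes and all their intervals are named; of the pathway list, those with a shared interval, at most 10, are named. Python 3.11.15 with pandas 2.3.3 was used.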

Additional observations from a re-analysis of the deposited data

How the results depend on the processing

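Of 41 values recomputed under other settings, 31 stayed within 1.5-fold of the count reported and 10 moved further. With a window of 500 kb around each gene in place of the domain, the 10 genes had 9 first-ChIP, 45 validation and 5 shared intervals, and 19 genes of the Wnt pathway list had a shared one; this window reaches into neighbouring genes. Counting only intervals whose nearest protein-coding gene was the one described, 5 of the 10 genes had validation intervals, 14 in all, and 4 genes of the pathway list had a shared one. With intervals that reached the median score of their list, fewer were compared: 2 first-ChIP intervals remained, at 2 genes (En1 and Lrp6), and 11 validation intervals. En1, Lrp6 and Rspo3 were the genes with a shared interval under both stricter overlap rules, by nearest gene and by summit position. Rspo3 was lost at the score minimum, and En1 and Rspo3 with a window of 100 kb, where Wnt5a was gained. No paired analysis was possible because each ChIP is 1 library. Read depth is unknown, so a missing interval may lie below the calling limit of either list.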

Other observations

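Among Wnt pathway genes outside the 10, a few were picked after their values had been seen. Fzd2, a Frizzled receptor gene on chromosome 11 (102604431 to 102608058), had 6 validation intervals in its domain, as many as Wnt5a, and no first-ChIP interval. Of these, 5 lay within 10 kb of the gene, with scores of 9 to 15. One lay across each end of the gene, at 102604039 to 102604594 with a score of 13 and at 102607697 to 102608427 with a score of 15. Ror2, which encodes a receptor for Wnt5a, had 4 validation intervals and 1 first-ChIP interval in its domain, none of them shared. Gpc3, which encodes a glypican, also had 4 validation intervals and no first-ChIP interval. The domains of Fzd2, Ror2 and Gpc3 were 109, 350 and 626 kb long, against a median of 67.3 kb over all protein-coding genes. At least 6 validation intervals lay in 0.854% of all these domains, and at least 3 in those of 688 of 21779 genes. The shares with 4 or more, or with 5 within 10 kb of the gene, were not counted, so these counts are descriptive only.

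Promoter windows were used for 59 of the 85 genes of the pathway list, 74 windows in all; Fzd2 was not among them. Validation intervals overlapped 2 of the 74 (2.70%), against 1.7% of the windows of all protein-coding genes, and first-ChIP intervals overlapped 0, against 1.05%. The validation ChIP listed an interval over the start of Fzd1 on chromosome 5, at 4758148 to 4758657 with a score of 10, and one over a start of Tcf7l2 on chromosome 19, at 55741674 to 55742018 with a score of 9. Both scores were below the median of the list, and the first ChIP listed neither.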
